A study of Homo sapiens with 9 samples.

Results

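The genes described here are those of the cytosolic ribosome and of the factors that load, move and release it on mRNA, in WI-38 cells after doxorubicin. They were taken by symbol from the authors' deposited table of doxorubicin against control: ribosomal protein symbols (RPL, RPS, RPLP), initiation factors (EIF), elongation, termination and poly(A) binding factors (EEF, ETF1, GSPT, PABPC) and a few nucleolar proteins (NOP, FBL, NCL, NPM1), without the ribosomal S6 kinases, the eIF4E-binding proteins and pseudogene names. This gave 54 genes of the 6499 in the table, which were 28 ribosomal protein genes, 16 initiation factor genes, 7 elongation, termination and poly(A) binding genes and 3 nucleolar genes. Of these, 53 averaged at least 1 TPM across the libraries and entered the fit, and the other, the divergent transcript EIF2AK3-DT, stayed between 0.17 and 0.66 TPM in the 6 libraries. The symbols were taken as they stand, so the ribosomal class also holds RPS19BP1, a nucleolar protein that binds RPS19, and the nucleolar class holds the antisense transcript NOP14-AS1. Likewise, the initiation class holds the kinases EIF2AK2, EIF2AK3 and EIF2AK4, which phosphorylate eIF2. The elongation class holds EEF1AKMT1, EEF1AKMT4 and EEF2KMT, enzymes that methylate elongation factors.

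The WI-38 line consists of diploid fibroblasts from human fetal lung that divide a limited number of times, and it was used here at population doubling 30. Control cells received DMSO, and the senescence model received 1 μM doxorubicin, an anticancer drug that poisons topoisomerase II and breaks DNA, for 12 h. Both were then kept for 48 h in medium with DMSO, and each group had 3 libraries. Another group of 3 libraries received oridonin after doxorubicin and was not analysed here. The labels do not say whether the libraries of a group came from separate cultures, so p-values measure the spread between these libraries, which may be technical.

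The table lists only genes that passed the authors' own thresholds (fold change over 1.2 and p under 0.05) on these same libraries. The thresholds apply to the authors' own fold changes and not to the ratio of these TPM, which for RPL19, for example, was 1.05 between the group means. Every gene below was therefore chosen for a difference between the groups, and the fit describes sizes and spreads without testing that difference again. By symbol, 181 annotated protein-coding genes belong to the 4 classes, and 52 of them are in the table. Those outside it include RPL5, RPL11, RPLP0, RPSA, RPS6, EIF4G1, EIF4A1, EIF2S1, EIF2S2, EEF1A1, EEF2K, NPM1, NCL, NOP56 and NOP58, whose values were not analysed here. Values are TPM, a share of each library's transcripts per unit of transcript length, so a change in RNA per cell cannot be told apart from a change in the rest of the RNA, and the read depth is unknown. Fibroblast markers in the table (6 of 12, COL1A1 and COL1A2 among them) lay between 14.5 and 2921 TPM in all libraries. Of 10 markers of other cell types 4 were listed, which were CD68 at 44.9 to 93.4 TPM, KRT18 at 25.5 to 42.3 TPM, KRT8 at 7.01 to 12.2 TPM and the leukocyte gene PTPRC at 0.01 to 0.62 TPM. Their part in the results was not tested.

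The small ribosomal subunit reads the mRNA and the large subunit joins amino acids, and each contains one copy of most ribosomal proteins, so that cells make these proteins in matched amounts. Initiation factors bring the small subunit to the capped end of the mRNA: eIF4E binds the cap, eIF4G and eIF4B help to open the mRNA, eIF3 holds the small subunit, and eIF2 brings the initiator tRNA. The elongation factor eEF2 moves the ribosome by one codon at a time. Most mRNAs of ribosomal proteins and of several factors begin with a C followed by a run of pyrimidines, the 5′ terminal oligopyrimidine (TOP) tract, through which mTOR and LARP1 regulate their translation.

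The annotated starts of genes on which the results turn are printed to show this tract, as 8 bases before and 20 bases from the RefSeq transcript start (GRCh38.p14, gene strand, 5′ to 3′). Capitals mark a run of C and T that begins with C at the start base. The first 7 are ribosomal protein genes with a tract of at least 5 bases, 4 are other genes with one, and the last 3 are ribosomal protein genes without one at the annotated start.
RPS19, chr19:41860247-41860274 (+ strand): ccgtcgttCCCTTTCCCCTggctggcag
RPS12, chr6:132814561-132814588 (+ strand): gatgaggcCTCTTTCCCTgccgccgccg
RPS27, chr1:153990754-153990781 (+ strand): ctttcgctCCTTTCCggcggtgacgacc
RPLP1, chr15:69452810-69452837 (+ strand): cgcgagagCCCCTTTCCTCagctgccgc
RPL41, chr12:56116625-56116652 (+ strand): tcgcctttCTCTCggccttagcgccatt
RPL24, chr3:101686699-101686726 (- strand): gattctctCTTTCTTTTCgccatctttt
RPL22L1, chr3:170870176-170870203 (- strand): gtagcttcCTCTCTgctctcgcggccga
EEF2, chr19:3985444-3985471 (- strand): tcagcgttCTCTTCCgccgtcgtcgccg
EIF4B, chr12:53006448-53006475 (+ strand): atccgggtCTTTTgcgttctctttccct
EIF2S3, chrX:24054948-24054975 (+ strand): tttccttcCTCTTTTggcaacatggcgg
FBL, chr19:39846360-39846387 (- strand): cctgcgctCTTTTCCacgtgcgaaagcc
RPL3, chr22:39319604-39319631 (- strand): cgaccggcCTCTaccggcgggatttgat
RPS28, chr19:8321488-8321515 (+ strand): agcacgtgactcctctccgccagaccgc
RPS27L, chr15:63157458-63157485 (- strand): tgccgagcgcagatcgcttgcagcttgc

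The classes differed in how many genes were higher and lower after doxorubicin. A gene was called higher or lower at a fold change over 1.2 and a Benjamini-Hochberg adjusted p under 0.05 in limma on log2(TPM + 1), where the change of low genes is understated. Of the 28 ribosomal protein genes, 5 were called higher, 3 lower and 20 neither, where 22.7% of all 5721 genes fitted were called higher and 48.5% lower. The share called higher was near that of all genes and the share called lower was below it. Of the 15 initiation factor genes fitted, which include the kinases of eIF2, none was called higher and 10 were called lower, EIF2AK2 among them. With an unadjusted p the limma count of higher genes was also 0, and without the fold minimum it was 3. The 7 elongation, termination and poly(A) binding genes had 2 calls in each direction, and the 3 nucleolar genes had 1 in each direction.
The median log2 fold change was 0.16 for the ribosomal protein genes, -0.38 for the initiation factor genes, 0.17 for the elongation group, 0.24 for the nucleolar group and -0.28 for all genes fitted. Relative to that median of all genes, the 4 classes lay at 0.44, -0.10, 0.45 and 0.52. The elongation median was the value of EEF2KMT, an enzyme that methylates eEF2. EEF2 and PABPC1 lay at -0.43 and -0.42, and 5 genes of that group were above 0. Of the 5721 genes fitted, 3067 had a negative value on TPM and 2654 a positive one. A ribosomal protein gene with a small positive value thus lay above the genes that fell, and the initiation factor genes lay near the middle of the table. These positions depended on the scaling, and both other scalings were computed on the listed genes alone. Under quantile normalization the ribosomal protein genes lay 0.05 from the table's middle value and the initiation factor genes -0.37. Under median ratio scaling the same distances were 0.48 and -0.10.

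**Figure D1:**
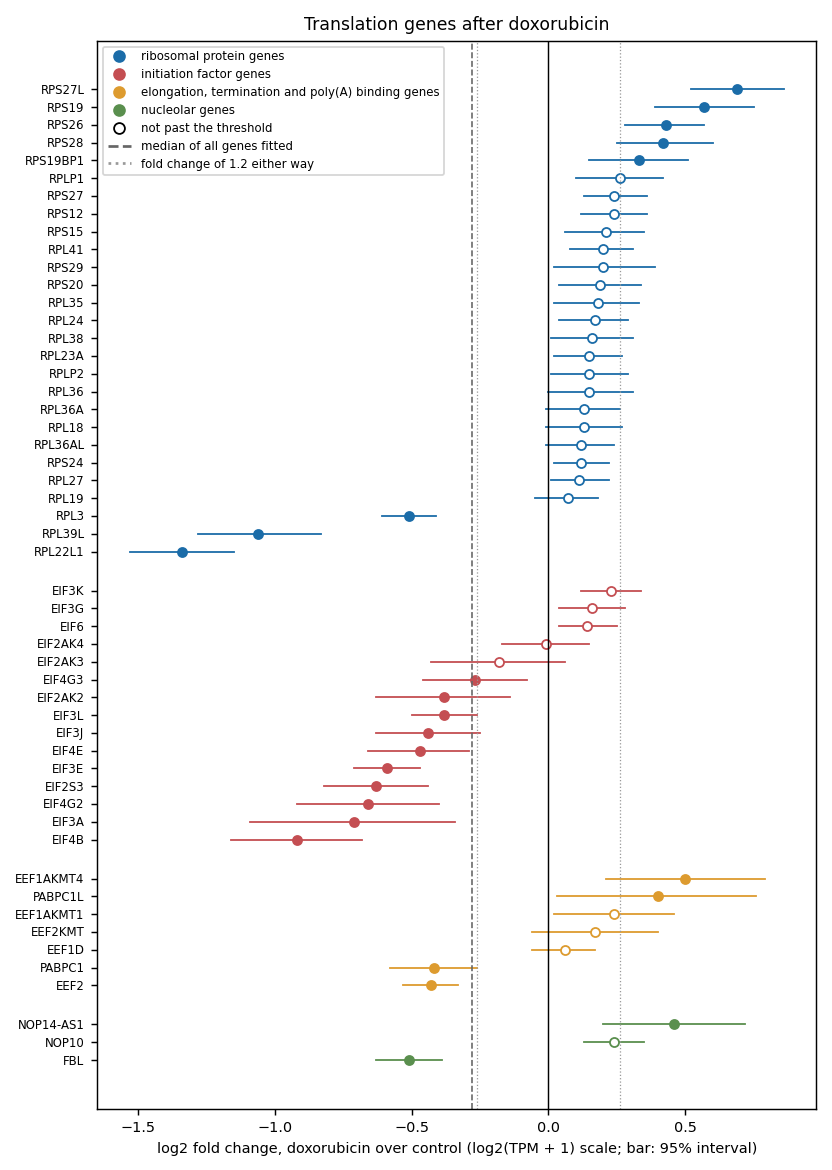
Log2 fold change of doxorubicin over control on the log2(TPM + 1) scale for the genes fitted and reported, by class, with 95% intervals as bars; filled points passed the call and open points did not, and the dashed line is the median of all genes fitted (-0.28). The ribosomal protein genes form a column just above 0 with RPL3, RPL39L and RPL22L1 far to the left, and 12 of the 15 initiation factor genes lie below 0.

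Most listed ribosomal protein genes had small positive values on the TPM scale. Of 91 annotated genes with a symbol of this class, 63 are outside the table, and a gene short of the authors' thresholds could not be listed. The 91 include RPS19BP1 and readthrough genes such as RPL17-C18orf32, so they are not all ribosomal protein genes. The signs and sizes below therefore describe the listed genes and not the whole class. Leaving aside the 4 paralogs with a suffix L and RPS19BP1, 23 genes encode subunits of the standard ribosome, and 22 of them had a log2 fold change above 0, between 0.07 for RPL19 and 0.57 for RPS19, with RPL3 the exception. After quantile normalization 16 of the 23 were above 0. These mRNAs are among the most abundant of the table, with control means of 353 to 6414 TPM, and 21 of the 23 were among its 100 most abundant genes. Together the 28 genes held 5.88, 5.6 and 6.08% of all TPM in the control libraries and 6.72, 7.05 and 6.17% in the doxorubicin libraries. The groups did not overlap, with means of 5.85 ± 0.242% and 6.64 ± 0.446% (SD, n = 3 each). An exact two-sided permutation test gave p = 0.1, below which 3 libraries against 3 cannot go. These genes were listed for a difference on the same libraries, and most had positive values, so the test only describes the share. All listed genes together also held a larger share, at least 58.6% in each doxorubicin library and at most 54.8% in each control.
The 9 small-subunit genes had a median log2 fold change of 0.24 and 3 calls, and the 14 large-subunit genes had a median of 0.15 and 1 call, which was the fall of RPL3. The difference between the subunits was not tested. Without the fold minimum, 17 of the 28 had an adjusted p under 0.05 with a higher value (28.2% of all genes fitted) and 3 with a lower one (48.7%). In 13 of the 28 every doxorubicin library was above every control library (32.3% of all genes), and in 3 every one was below (48.4%).

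RPL41, a very small basic protein of the large subunit, had the highest level of the class, with 6422, 6142 and 6678 TPM in controls 1 to 3 and 7447, 7695 and 6929.7 TPM in doxorubicin 1 to 3. The groups did not overlap, and the change was small, with a log2 fold change of 0.20 ± 0.05 (SE, limma, adjusted p = 0.00608). RPS27, a zinc-binding protein of the small subunit, was nearly as abundant, with 6325, 5840.2 and 6196 TPM in controls 1 to 3 and 7400.5, 7589 and 6765 TPM in doxorubicin 1 to 3. It too stayed under the fold minimum, with a log2 fold change of 0.24 ± 0.05 (SE, limma, adjusted p = 0.00242). RPLP1 and RPLP2, proteins of the acidic stalk that recruits elongation factors, were at 0.26 and 0.15 on the log2 fold change scale, with overlapping groups for RPLP2. The nearest genes to the fold minimum (0.26 on the log2 scale) were RPLP1 below it and RPS19BP1 above it at 0.33.

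RPS19, a small-subunit protein needed to mature its rRNA and mutated in Diamond-Blackfan anemia, rose the most among the standard subunits. Its values (ENSG00000105372, chromosome 19, 41859918 to 41872926) were 2523, 2408 and 2752 TPM in controls 1 to 3 and 4040.2, 4076 and 3319 TPM in doxorubicin 1 to 3. All 3 doxorubicin libraries were higher than every control, with doxorubicin 3 the lowest of them, and the mean went from 2561 ± 175 TPM in control to 3812 ± 427 TPM (SD, n = 3 each), that is, a log2 fold change of 0.57 ± 0.08 (SE, limma, adjusted p = 0.000286).
RPS26 (ENSG00000197728, chromosome 12, 56041351 to 56044697), a protein at the mRNA exit channel of the small subunit, had 609.5, 576 and 587 TPM in controls 1 to 3 and 750.3, 879 and 761 TPM in doxorubicin 1 to 3. The groups did not overlap, with a log2 fold change of 0.43 ± 0.07 (SE, limma, adjusted p = 0.000322). It was 0.22 and no longer called after quantile normalization.
RPS28 (ENSG00000233927, chromosome 19, 8321158 to 8323340), another small-subunit protein near that channel, had 1046, 938 and 1101 TPM in controls 1 to 3 and 1377, 1511 and 1259 TPM in doxorubicin 1 to 3, again without overlap and with a log2 fold change of 0.42 ± 0.08 (SE, limma, adjusted p = 0.000901). Reads of RPS26 and RPS28 may be shared with near-identical copies. The processed pseudogene RPS28P7 on chromosome 11 was listed at a higher level than RPS28 itself, with 1725, 1465 and 1695 TPM in controls 1 to 3 and 1857, 1833 and 1803 TPM in doxorubicin 1 to 3. Summing the gene and the copy, a choice made after seeing the data, lowered the log2 fold change of RPS28 to 0.28 ± 0.06 (SE, limma, adjusted p = 0.00318). The same sum left RPS26 with RPS26P19 at 0.43 and RPL23A with RPL23AP82 at 0.15.

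RPL3 (ENSG00000100316, chromosome 22, 39312882 to 39320389), the large-subunit protein closest to the site of peptide bond formation, went the other way. It had 2368, 2286 and 2424 TPM in controls 1 to 3 and 1667, 1640.1 and 1665 TPM in doxorubicin 1 to 3. The 3 doxorubicin libraries were close to each other and below every control, with a log2 fold change of -0.51 ± 0.04 (SE, limma, adjusted p = 8.04e-06). It was lower under all 3 scalings, at -0.62 after quantile normalization and -0.28 after median ratio scaling. A ratio of 2 genes within a library does not change when a library is multiplied by a factor, as in median ratio scaling, and can change under quantile normalization, which acts by rank. The ratio of RPL3 to RPL24, which had nearly the same control level, was 1.14, 1.12 and 1.15 in the control libraries and 0.726, 0.650 and 0.764 in the doxorubicin libraries. The ratio was thus lower in every doxorubicin library (means 1.14 ± 0.0151 and 0.713 ± 0.058, SD, n = 3 each; exact permutation test, p = 0.1). Both genes were listed for a difference on these libraries, so the test only describes the ratio.

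**Figure D2:**
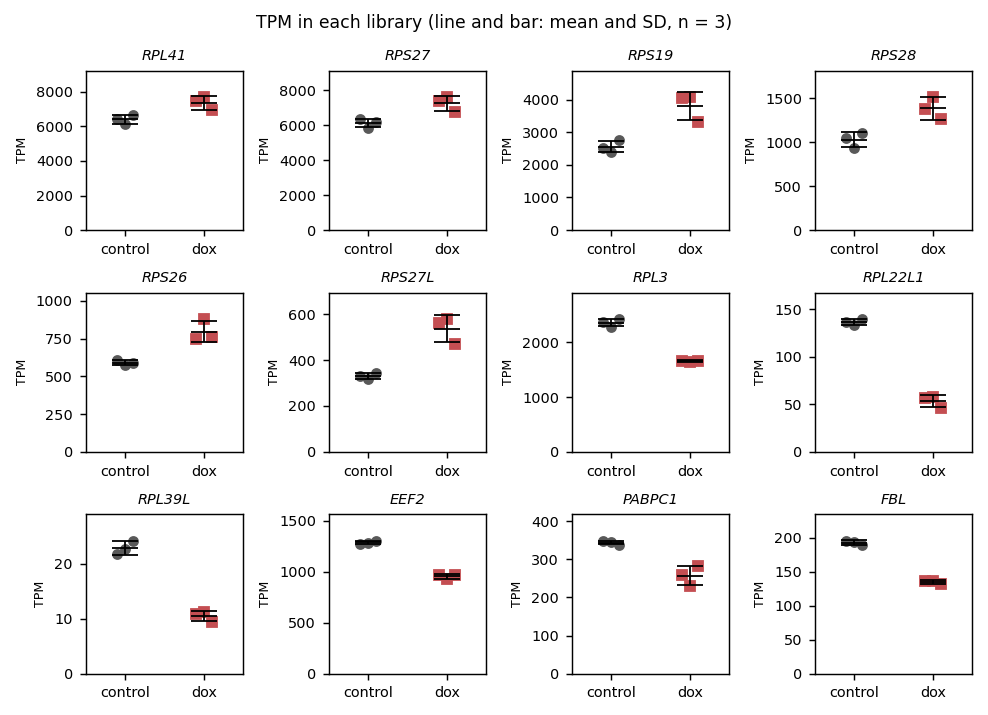
TPM of 12 genes in each library (y axis from 0; circles, control; squares, doxorubicin; line and bar, mean and SD of 3 libraries). RPS19, RPS26, RPS28 and RPS27L lie higher after doxorubicin and RPL3, RPL22L1, RPL39L, EEF2, PABPC1 and FBL lower, with no overlap between the groups in any panel.

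The 3 largest changes of the class were those of paralogs, copies of a ribosomal protein gene that encode a variant protein. RPS27L (ENSG00000185088, chromosome 15, 63125872 to 63158021), a paralog of RPS27 known as a p53 target gene, had 331, 319.5 and 345 TPM in controls 1 to 3 and 563, 578 and 470.4 TPM in doxorubicin 1 to 3. It was higher in every doxorubicin library, from 332 ± 12.6 TPM in control to 537 ± 58.4 TPM (SD, n = 3 each), that is, a log2 fold change of 0.69 ± 0.08 (SE, limma, adjusted p = 4.68e-05). Its ratio to RPS27 was 0.0523, 0.0547 and 0.0556 in the control libraries and 0.0760, 0.0762 and 0.0695 in the doxorubicin libraries. RPS27L was thus higher relative to RPS27 in every doxorubicin library and far below its level in all 6 libraries (exact permutation test of the ratio, p = 0.1).
RPL22L1 (ENSG00000163584, chromosome 3, 170864875 to 170870483), the paralog of RPL22, fell the most of all 53 genes. It had 137, 133 and 139.9 TPM in controls 1 to 3 and 56.5, 58.0 and 46.4 TPM in doxorubicin 1 to 3. Every doxorubicin library was far below every control, with a log2 fold change of -1.34 ± 0.09 (SE, limma, adjusted p = 7.25e-07).
RPL39L (ENSG00000163923, chromosome 3, 187120948 to 187180908), the paralog of RPL39, had 21.8, 22.7 and 24.1 TPM in controls 1 to 3 and 10.8, 11.2 and 9.45 TPM in doxorubicin 1 to 3, with no overlap and a log2 fold change of -1.06 ± 0.10 (SE, limma, adjusted p = 1.69e-05). RPL22 and RPL39 are outside the table and were not analysed here. RPL36AL and RPL36A, the remaining pair, had similar log2 fold changes: their ratio was 1.35 ± 0.0346 in control and 1.34 ± 0.114 after doxorubicin (SD, n = 3 each; exact permutation test, p = 1.0), and neither gene was called, at 0.12 (95% interval -0.01 to 0.24) and 0.13 (95% interval -0.01 to 0.26).

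The listed initiation factor genes were mostly lower after doxorubicin. The 10 called lower, with the kinase EIF2AK2 among them, ranged from -0.92 for EIF4B to -0.27 for EIF4G3. Groups did not overlap in 11 of the 15 genes with lower values (48.4% of all genes) and 3 with higher ones (32.3%).
EIF4B (ENSG00000063046, chromosome 12, 53006158 to 53042209), which stimulates the helicase eIF4A and begins with a TOP tract, changed the most. It had 111, 119.8 and 108 TPM in controls 1 to 3 and 62.8, 48.8 and 67.3 TPM in doxorubicin 1 to 3. All 3 doxorubicin libraries were lower, doxorubicin 2 the furthest, and the mean went from 113 ± 6.23 TPM in control to 59.6 ± 9.62 TPM (SD, n = 3 each), that is, a log2 fold change of -0.92 ± 0.11 (SE, limma, adjusted p = 6.8e-05).
EIF4G2 (ENSG00000110321, chromosome 11, 10797050 to 10809110), a relative of eIF4G that lacks the site for eIF4E, was the most abundant gene of the class. It had 475, 514 and 441 TPM in controls 1 to 3 and 314, 247 and 349.6 TPM in doxorubicin 1 to 3, with a log2 fold change of -0.66 ± 0.11 (SE, limma, adjusted p = 0.00089). EIF4G3, a scaffold of the cap complex, was just past the fold minimum (-0.27, adjusted p = 0.0147 from limma), and it was not called under quantile normalization (-0.21), under median ratio scaling (-0.05) or without control 1, doxorubicin 1 or doxorubicin 2 (-0.26, -0.26 and -0.21).
EIF4E (ENSG00000151247, chromosome 4, 98871684 to 98930637), the cap-binding protein, had 45.9, 52.0 and 50.8 TPM in controls 1 to 3 and 34.2, 33.8 and 38.2 TPM in doxorubicin 1 to 3. The groups did not overlap and the gene fell, with a log2 fold change of -0.47 ± 0.08 (SE, limma, adjusted p = 0.000703), although it was not called under median ratio scaling (-0.25).
EIF2S3 (ENSG00000130741, chromosome X, 24054716 to 24077971), the GTP-binding subunit of eIF2, had 75.0, 79.8 and 74.3 TPM in controls 1 to 3 and 48.5, 44.3 and 54.8 TPM in doxorubicin 1 to 3. The fall was seen in every doxorubicin library and under all 3 scalings, with a log2 fold change of -0.63 ± 0.08 (SE, limma, adjusted p = 0.000143) on TPM, -0.62 after quantile normalization and -0.40 after median ratio scaling.

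The subunits of eIF3 listed in the table differed in direction. EIF3A, EIF3E, EIF3L and EIF3J were called lower, and EIF3G and EIF3K had values above 0 and were not called.
EIF3A (ENSG00000107581, chromosome 10, 119033670 to 119080823), the large scaffold of the complex, had 73.7, 83.2 and 73.7 TPM in controls 1 to 3 and 50.5, 34.1 and 58.0 TPM in doxorubicin 1 to 3. Doxorubicin 2 was far below the other doxorubicin libraries, which gave this gene the widest interval of the class, with a log2 fold change of -0.71 ± 0.17 (SE, limma, adjusted p = 0.00443).
EIF3E, a subunit of the octameric core, had 192, 186 and 185 TPM in controls 1 to 3 and 127, 122 and 124 TPM in doxorubicin 1 to 3, with little spread within the groups and a log2 fold change of -0.59 ± 0.05 (SE, limma, adjusted p = 1.2e-05).
EIF3K, another subunit of the same complex, had 350.1, 341 and 339.9 TPM in controls 1 to 3 and 411, 402 and 398 TPM in doxorubicin 1 to 3. Every doxorubicin library was higher, at 0.23 (adjusted p = 0.00191 from limma), under the fold minimum, and 0.13 after quantile normalization. The ratio of EIF3E to EIF3K was 0.548, 0.544 and 0.545 in the control libraries and 0.309, 0.304 and 0.312 in the doxorubicin libraries. The libraries of a group hardly differed in this ratio, with means of 0.546 ± 0.00218 and 0.308 ± 0.00404 (SD, n = 3 each; exact permutation test, p = 0.1).
EIF3L, which binds EIF3K in the complex, went from 249 ± 3.35 TPM in control to 191 ± 7.52 TPM (SD, n = 3 each), that is, a log2 fold change of -0.38 ± 0.05 (SE, limma, adjusted p = 0.000214). Its ratio to EIF3K was lower in every doxorubicin library as well, at 0.724 ± 0.00422 in control and 0.474 ± 0.0242 after doxorubicin (SD, n = 3 each; exact permutation test, p = 0.1).
EIF3J, a loosely bound subunit at the mRNA channel, and EIF3G, an RNA-binding subunit, had log2 fold changes of -0.44 and 0.16. The ratio of EIF3A to EIF3G was 0.244 ± 0.0227 in control and 0.135 ± 0.0362 after doxorubicin, and that of EIF3J to EIF3G 0.159 ± 0.0139 and 0.104 ± 0.0106 (SD, n = 3 each; exact permutation test, p = 0.1 for each). In all, 14 ratios were computed, and none of these p-values is under 0.05 before or after adjustment because 0.1 is the smallest possible. Every gene in these ratios was listed for a difference on the same libraries. The tests of ratios therefore describe them and do not test a difference anew.

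**Figure D3:**
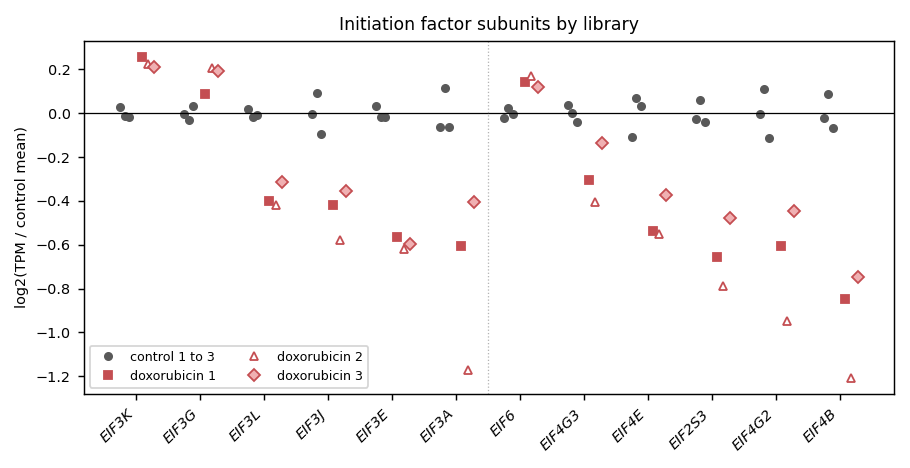
Log2 of TPM over the control mean for 12 initiation factor genes in each library (grey circles, the 3 control libraries; red symbols, the 3 doxorubicin libraries; eIF3 subunits left of the dotted line). EIF3K, EIF3G and EIF6 lie above 0 in every doxorubicin library and the other 9 genes lie below 0 in every one, with doxorubicin 2 lowest in most.

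EIF6, which keeps the large subunit from joining too early and also acts in ribosome assembly, had 354, 366 and 358 TPM in controls 1 to 3 and 396, 404 and 390.3 TPM in doxorubicin 1 to 3. The groups did not overlap and the change stayed under the fold minimum, with a log2 fold change of 0.14 ± 0.05 (SE, limma, adjusted p = 0.0209). Of the kinases that phosphorylate eIF2, EIF2AK2 (PKR, activated by double-stranded RNA) was low and was called lower, going from 7.82 ± 0.445 TPM in control to 5.77 ± 0.232 TPM (SD, n = 3 each), that is, a log2 fold change of -0.38 ± 0.11 (SE, limma, adjusted p = 0.01). It was not called after quantile normalization (-0.03) or median ratio scaling (-0.18). EIF2AK3 (PERK, of the endoplasmic reticulum) had 6.43, 6.12 and 6.36 TPM in controls 1 to 3 and 5.16, 5.47 and 5.69 TPM in doxorubicin 1 to 3 and was not called (-0.18, 95% interval -0.43 to 0.06). EIF2AK4 (GCN2, activated by uncharged tRNA) had a log2 fold change of -0.01 (95% interval -0.17 to 0.15), with overlapping groups. The signs of EIF2AK3 and EIF2AK4 flipped with the scaling.

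Of the elongation and poly(A) binding genes, both abundant factors with calls were lower. EEF2 (ENSG00000167658, chromosome 19, 3976056 to 3985469), the translocase of elongation, had the highest level of the group, with 1276, 1286 and 1302 TPM in controls 1 to 3 and 965, 929.6 and 969 TPM in doxorubicin 1 to 3. The groups lay far apart with little spread, and EEF2 fell with a log2 fold change of -0.43 ± 0.05 (SE, limma, adjusted p = 2.95e-05). PABPC1, the main cytoplasmic poly(A) binding protein, had 348, 344 and 338 TPM in controls 1 to 3 and 259.8, 231 and 282 TPM in doxorubicin 1 to 3, with a log2 fold change of -0.42 ± 0.07 (SE, limma, adjusted p = 0.000558). After median ratio scaling EEF2 was at -0.20 and PABPC1 at -0.19, below 0 and not called. EEF1D, an exchange factor for eEF1A, was not called, at 0.06 (95% interval -0.06 to 0.17), and its paralog EEF1B2 is outside the table. The ratio of EEF2 to EEF1D was 2.09, 2.14 and 2.05 in the control libraries and 1.5, 1.41 and 1.57 in the doxorubicin libraries, lower in each of the latter (exact permutation test, p = 0.1).
The enzymes that methylate elongation factors were rare mRNAs with higher values. EEF1AKMT4 had 4.77, 5.07 and 5.73 TPM in controls 1 to 3 and 7.1, 9.09 and 7.15 TPM in doxorubicin 1 to 3, without overlap and with a log2 fold change of 0.50 ± 0.13 (SE, limma, adjusted p = 0.00617). It overlaps a readthrough gene with ECE2, so its reads are uncertain. EEF1AKMT1 and EEF2KMT had log2 fold changes of 0.24 and 0.17 on TPM and were not called, and they were called higher after quantile normalization, at 0.47 and 0.42, and after median ratio scaling. PABPC1L, a paralog of PABPC1 known from oocytes, had 16.4, 12.5 and 12.9 TPM in controls 1 to 3 and 14.1, 20.7 and 21.9 TPM in doxorubicin 1 to 3. It was called higher (0.40, adjusted p = 0.0482 from limma) although the groups overlapped. Without control 2, control 3, doxorubicin 2 or doxorubicin 3 it was no longer called, at 0.33, 0.35, 0.32 and 0.28.

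The nucleolar genes also had values on both sides of 0. FBL (ENSG00000105202, chromosome 19, 39834458 to 39846414), fibrillarin, the methyltransferase of box C/D snoRNPs that modify rRNA, had 195, 194 and 189.5 TPM in controls 1 to 3 and 137, 136 and 132 TPM in doxorubicin 1 to 3. Every doxorubicin library was below every control, and FBL fell with a log2 fold change of -0.51 ± 0.05 (SE, limma, adjusted p = 2.9e-05), and also under quantile normalization (-0.57) and median ratio scaling (-0.29). NOP10 (ENSG00000182117, chromosome 15, 34341713 to 34343177), a small protein of the box H/ACA snoRNPs that form pseudouridine in rRNA, had 414, 385 and 407 TPM in controls 1 to 3 and 469, 479.8 and 476 TPM in doxorubicin 1 to 3. Its groups did not overlap and the change stayed under the fold minimum, with a log2 fold change of 0.24 ± 0.05 (SE, limma, adjusted p = 0.00205). The ratio of FBL to NOP10 was 0.471, 0.504 and 0.465 in the control libraries and 0.291, 0.284 and 0.277 in the doxorubicin libraries. The 2 mRNAs changed unequally in every doxorubicin library (exact permutation test, p = 0.1). This compares 1 protein of each snoRNP class, and DKC1, the pseudouridine synthase that works with NOP10, was called lower (-0.48, adjusted p = 0.00989 from limma). NHP2, another protein of the box H/ACA snoRNPs, was at 0.16 and under the fold minimum (adjusted p = 0.0224 from limma). NOP14-AS1 was called higher (0.46, adjusted p = 0.00577 from limma) at 4.83, 5.06 and 5.0 TPM in controls 1 to 3 and 7.78, 7.53 and 6.34 TPM in doxorubicin 1 to 3. Whether reads were counted by strand is not given in the sources used here, so its reads cannot be told from those of the gene on the opposite strand.

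The scaling of the libraries moved the counts of every class. Quantile normalization and median ratio scaling were computed within the listed genes, which were chosen for a difference between the groups. Genes outside the table could not enter them, so neither stands for a normalization over all expressed genes. Median ratio scaling raised the doxorubicin libraries relative to the controls, and 25 of the 28 ribosomal protein genes were then called higher (43.7% of all genes) and the same 3 genes, RPL3, RPL22L1 and RPL39L, were lower (37.6%), with a class median of 0.39 against -0.09 for all genes. Under quantile normalization 4 were called higher (32.9% of all genes) and 3 lower (29.1%), with a class median of 0.03 against -0.02. Quantile normalization gives the gene of each rank the same value in all libraries, and RPL41, the most abundant gene of the class, had a log2 fold change of 0 under it, while RPL3 was at -0.62 and RPS19 at 0.39. The initiation factor genes were 8 lower and 7 neither under quantile normalization (median -0.38) and 5 lower and 3 higher under median ratio scaling (median -0.18). EIF4B, EIF3A, EIF4G2, EIF2S3 and EIF3E were called lower under all 3. Over the 53 genes, calls were 8 higher and 16 lower on TPM, 9 and 14 under quantile normalization and 35 and 9 under median ratio scaling, where all genes fitted gave 1301 and 2775, 1880 and 1664, and 2498 and 2151.

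**Figure D4:**
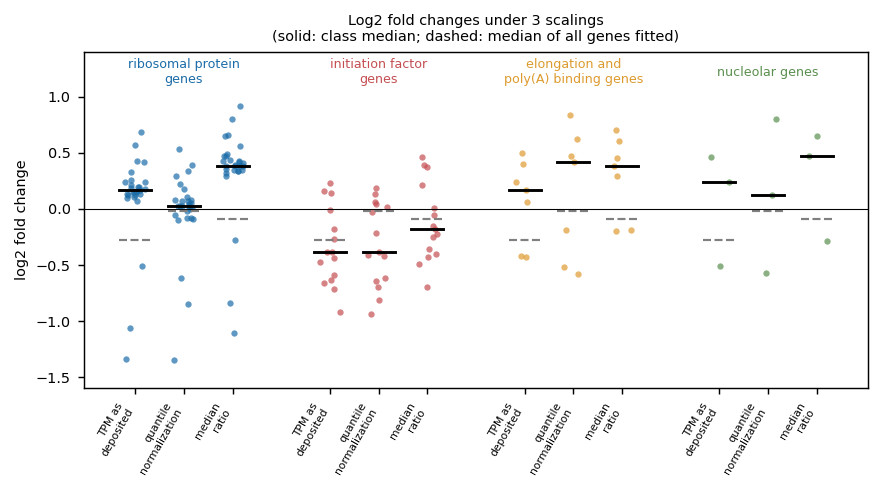
Log2 fold change of each gene (points) by class under the deposited TPM, quantile normalization and median ratio scaling; solid lines are class medians and dashed lines the medians of all genes fitted. The ribosomal protein medians are 0.16, 0.03 and 0.39, and the initiation factor medians -0.38, -0.38 and -0.18.

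The doxorubicin libraries differed in the size of the change. Of the 35 genes with a positive log2 fold change, doxorubicin 2 was the furthest from control in 29 and doxorubicin 3 the nearest in 28. Of the 18 with a negative one, doxorubicin 2 was the furthest in 13 and doxorubicin 3 the nearest in 13. The median log2 ratio of the ribosomal protein genes to the control mean was 0.16, 0.27 and 0.05 in doxorubicin 1, 2 and 3, and that of all genes fitted was -0.27, -0.33 and -0.15, so the libraries kept the same order of size in both. Without doxorubicin 3, 9 ribosomal protein genes were called higher in place of 5. The part of these library differences in the results was not tested.

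A TOP tract, counted here as a C at the RefSeq start base followed by at least 4 bases that are C or T on the gene strand, was found in 14 of the 23 ribosomal protein genes with a start in the RefSeq table (60.9%) and in 3 of the 12 initiation factor genes. It was found in 5.14% of the 27305 genes of that table and in 7.46% of the 4395 genes fitted that matched it. Over the 4 classes, 41 genes matched and 19 had the tract. The count depends on the exact annotated start, and in RPS28 the run of C and T begins after the start base.
Genes with the tract went both ways. Of the 19, 14 had a positive and 5 a negative log2 fold change, with a median of 0.15, and of the 21 fitted genes without it 13 were positive and 8 negative, with a median of 0.12. The calls among the 19 were 1 higher, RPS19, and 5 lower, which were RPL22L1, EIF4B, EIF2S3, EEF2 and FBL. Without the tract, 6 of the 21 were called higher and 6 lower, where all genes gave 22.7% and 48.5%. RPS19 and EEF2 both have a tract at the starts printed above and moved in opposite directions, and RPS27L and RPL3, which have none there, did as well. RPS19 has another RefSeq start without the tract, and a gene was counted as having it where any of its starts did. The difference between genes with and without the tract was not tested.

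The classes also differ in gene length. The genomic span had a median of 4568 bp in the ribosomal protein genes, 40540 bp in the initiation factor genes and 32497 bp over all genes fitted. Across the 53 genes, which are not independent and share the same 6 libraries, Spearman's rho between span and log2 fold change was -0.43, and over the 5700 fitted genes with a position it was -0.44. Within the ribosomal protein genes it was -0.26 (28 genes) and within the initiation factor genes -0.14 (15 genes). Among the 25 genes outside the ribosomal proteins, the 10 with a span of up to 20 kb had a median log2 fold change of 0.15 with 7 above 0, and the 15 longer ones had a median of -0.38 with 12 below 0. EEF2, FBL, EIF4G2 and RPL3 are short genes that fell. RPS27L, at 32150 bp above its class median and near that of all genes fitted, rose. The part of gene length in the results was not tested. Annotated snoRNA genes lie within 9 of the 54 genes, of which 5 were above 0 and 4 below, among them RPL3, EEF2, EIF3A and EIF4G2.

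**Figure D5:**
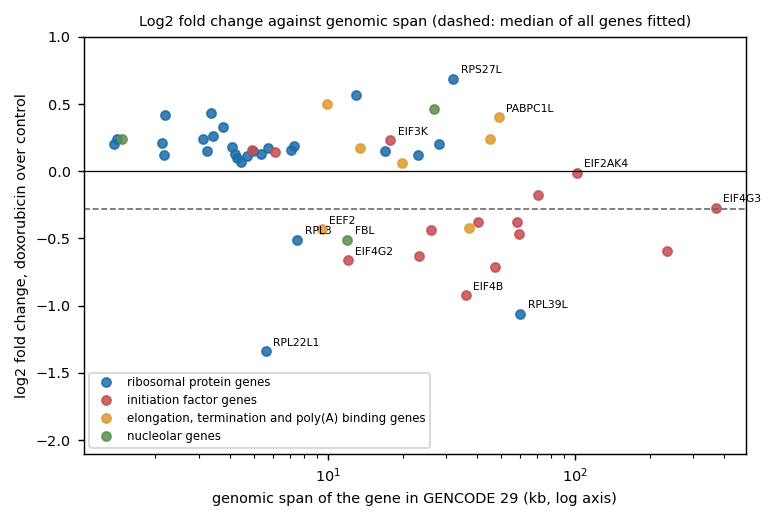
Log2 fold change (y axis) against genomic span in kb (log x axis) for the 53 genes by class; the dashed line is the median of all genes fitted (-0.28). Ribosomal protein genes sit at short spans just above 0, most longer initiation factor genes lie below 0, and RPL22L1, RPL3, FBL, EEF2 and EIF4G2 are low at short spans.

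Other gene lists of protein synthesis are set beside all genes fitted, of which 22.7% were called higher and 48.5% lower on the TPM scale. Of the 12 cytosolic aminoacyl-tRNA synthetase genes listed, which charge tRNAs with amino acids, 11 were called lower and 1 neither, with a median log2 fold change of -0.67. The count of 11 was the same after quantile normalization, and after median ratio scaling 9 were lower and 1 was higher. WARS1, the tryptophan enzyme, had 209, 200.03 and 206 TPM in controls 1 to 3 and 83.5, 72.6 and 102 TPM in doxorubicin 1 to 3, with a log2 fold change of -1.26 ± 0.10 (SE, limma, adjusted p = 6.42e-06). YARS1, the tyrosine enzyme, followed at -0.76. Both lay below every control in each doxorubicin library.
Of 15 listed genes of the integrated stress response, the program that eIF2 phosphorylation turns on, 12 were called lower and 3 neither, with a median of -0.78. PSAT1 and PHGDH, enzymes of serine synthesis, changed the most, at -2.13 and -1.88. ATF4, the central transcription factor of the program, had 346, 323 and 355 TPM in controls 1 to 3 and 201, 202 and 224 TPM in doxorubicin 1 to 3, with a log2 fold change of -0.71 ± 0.06 (SE, limma, adjusted p = 9.84e-06). DDIT3 (CHOP) was at 0.07 and was not called. Under quantile normalization 10 were lower and 2 higher, and under median ratio scaling 11 were lower and 3 higher.
Of 11 listed regulators of translation, 7 were called lower and 1 higher (4 and 1 under quantile normalization, 5 and 3 under median ratio scaling). LARP1, which binds the TOP tract, had 36.1, 38.9 and 36.6 TPM in controls 1 to 3 and 23.5, 19.9 and 26.6 TPM in doxorubicin 1 to 3, with a log2 fold change of -0.66 ± 0.11 (SE, limma, adjusted p = 0.000413). EIF4EBP1, the inhibitor of eIF4E, went from 141 ± 11 TPM in control to 89.1 ± 9.34 TPM (SD, n = 3 each), that is, a log2 fold change of -0.66 ± 0.09 (SE, limma, adjusted p = 0.000138). RPS6KA1, an S6 kinase of the RSK family, was low and rose by 0.37 on the log2 scale.
Of 2 listed ribosomal protein genes outside the 4 classes, 1 was called higher. The other, FAU, the source of the small-subunit protein S30, was not called (0.09). Of 6 listed mRNAs outside the 4 classes that are known to start with a TOP tract, 1 was called higher, 1 lower and 4 neither. Their median was 0.13, and under median ratio scaling 5 were higher and 1 lower. The 1 called lower was HNRNPA1, an RNA-binding protein of splicing. HNRNPA1 had 865, 834 and 785 TPM in controls 1 to 3 and 435, 435 and 428 TPM in doxorubicin 1 to 3. It fell in every doxorubicin library, with a log2 fold change of -0.93 ± 0.05 (SE, limma, adjusted p = 2.75e-07).
Of 31 listed ribosome biogenesis genes, 2 were called higher and 14 lower, with a median of 0.04, and the share called lower was near that of all genes. The balance turned with the scaling, to 4 higher and 5 lower under quantile normalization and 14 higher and 9 lower under median ratio scaling. DDX21, a nucleolar helicase, was at -0.93 and WDR36 at -0.61, and RRP9 and TSR2 were both at 0.28. Of 9 listed genes of ribosome quality control, 5 were called lower, near the 48.5% of all genes, and 4 neither, with a median of -0.51, led by MAP3K20, the kinase that senses stalled ribosomes (-1.13), and ABCE1, the ribosome recycling factor (-0.59). Under quantile normalization 3 of the 9 were lower and 1 higher, and under median ratio scaling 5 were lower and 2 higher.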

How the data were processed

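Total RNA of WI-38 cells was sequenced from both ends over 150 bp. The submitters' processing notes list CASAVA, HISAT2, StringTie, RSEM, DESeq2 and edgeR without version or role, and the mouse build GRCm38, while the gene identifiers are human Ensembl ones. The deposited table does not name its unit; the values were read as TPM made by the authors, since each library's listed genes hold 54.3 to 60.0% of the total that TPM sums to. The authors also deposited group means of the TPM, their own fold change (as a ratio and on the log2 scale) and raw and adjusted p-values, none of which was used. TPM keeps no read depth, so no counting interval is given.
Members and gene lists were chosen with earlier results of these data known. Values were transformed as log2(TPM + 1), with a pseudocount of 1, genes averaging at least 1 TPM were kept (5721 of 6499), and group means were compared in limma 3.58.1 (eBayes, trend and robust) in R 4.3.3, with the Benjamini-Hochberg adjustment over all genes fitted. The fit was tested on simulated data. The genes named are, per class, the 4 largest rises and falls among genes called without overlap between the groups, the most abundant gene, paralog pairs, and the subunits of eIF2, eIF3 and eIF4F with a few core genes; other lists give the 2 largest changes per direction among those called. Other genes are named for counts or contrasts, chosen after their values were seen. Positions are from GENCODE 29 (GRCh38), and starts from RefSeq. Plots and summaries used Python 3.11.15 with pandas 2.3.3, SciPy 1.17.1 and matplotlib 3.10.9. Alternatives were pseudocount 0.1, other filters and thresholds, quantile normalization, median ratio scaling, the replicate number as a block and leaving out each library. Quantile normalization used all listed genes, and median ratio scaling the 6168 of them above 0 in every library. Some genes of the classes and lists enter the counts and are not reported here by name.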

Additional observations from a re-analysis of the deposited data

How the results depend on the processing

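The pseudocount of 0.1 and the filter at 5 TPM changed no call of the 53 genes. Under quantile normalization, the genes called lower were 1664 of all genes, and the elongation group had 4 higher; among the genes reported, log2 fold changes changed sign for RPL19 (-0.05), RPL27 (-0.09), RPL36AL (-0.10), RPS24 (-0.08), RPL35 (-0.08), EIF2AK3 (0.19), EIF2AK4 (0.02) and EEF1D (-0.19). Under median ratio scaling, 2498 of all genes, 25 ribosomal, 3 initiation, 5 elongation and 2 nucleolar genes were higher, and 5 initiation and 0 elongation genes lower, with EIF2AK3 at 0.01 and EIF2AK4 at 0.21. With no fold minimum, 17 ribosomal, 3 initiation and 2 nucleolar genes were higher. With a fold change over 1.5, 432 of all genes were higher and 1509 lower, with 1 ribosomal gene higher, 5 initiation genes lower and 0 in either direction in the elongation and nucleolar groups. With no filter on low values, 1 elongation gene was higher, as PABPC1L was no longer called.
Leaving out each library in turn gave 4 to 9 ribosomal genes higher (9 without doxorubicin 3) and 3 lower, 9 to 10 initiation genes lower, 1 to 2 elongation genes higher and 2 lower, and 1 nucleolar gene in each direction, with 1185 to 1275 of all genes higher and 2503 to 2820 lower. EIF2AK4 ranged from -0.06 to 0.02, above 0 without control 1, control 3 or doxorubicin 1. The cause of these moves was not tested.
With the replicate number as a block, 1 elongation gene was higher because PABPC1L was no longer called, no other call of the 53 genes changed, and 1222 of all genes were higher and 2670 lower. Deviations from the group means of libraries with the same number correlated at -0.063, -0.193 and -0.23, which showed no pairing by number. With 3 libraries per group this check cannot exclude that libraries with the same number were handled together.
The table holds only genes already chosen on these 6 libraries, 3 against 3 cannot give an exact p below 0.1, and TPM keeps no depth. Class counts of calls depend on the scaling of the libraries, while within-library ratios are unchanged by a factor per library but can change under quantile normalization.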
